A study of Homo sapiens with 2 samples.

Results

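The MHC class II group holds 10 genes, chosen by symbol from the 29972 human genes of the table: CD74, the peptide-binding chains HLA-DRA, HLA-DRB1, HLA-DPA1 and HLA-DPB1, the peptide editor HLA-DMA and HLA-DMB, and the regulators CIITA, RFX5 and RFXAP. All 10 had a row. They were compared between 2 libraries from subcutaneous tumours of NCI-N87, an established human gastric carcinoma line with amplified ERBB2, grown in nude mice, which lack a thymus but keep other host immune cells. The tumour labelled untreated received no treatment. The other, labelled T-DM1-refractory, came from mice dosed with T-DM1 (trastuzumab emtansine, a HER2 antibody carrying a microtubule poison) every 3 weeks over 18 weeks. With 1 library per group there was no replicate and no test, and the sources used here do not say whether a library pooled animals. Because the tumours were measured in bulk, fewer cells expressing a gene and less RNA per cell cannot be told apart.

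MHC class II molecules are pairs of an alpha and a beta chain that show peptides from endosomes to CD4 T cells. The invariant chain, encoded by CD74, guards the groove until proteases cut it down to a short peptide, which HLA-DM then exchanges for antigen. Transcription rests on 2 conserved promoter boxes: the X box, bound by the RFX complex of RFX5, RFXAP and RFXANK together with CREB-type factors, and the Y box, an inverted CCAAT sequence bound by NF-Y. CIITA does not bind DNA itself but docks on these factors and is the limiting switch. Professional antigen-presenting cells make class II constitutively, and epithelial cells mainly under interferon gamma.

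The boxes can be read in the promoters of these genes. RefSeq promoters (GRCh38.p14, 250 bases before to 50 after a start) matched 8 of the 10 members; HLA-DRA and CIITA had no entry. The 150 bases just before the start are shown for CD74 (chr5:150412911-150413060, minus strand), for HLA-DOB (chr6:32817003-32817152, minus strand), a further class II chain, for HLA-DMB (chr6:32941029-32941178, minus strand) and for HLA-DMA (chr6:32953098-32953247, minus strand). The first pair had large falls with clear counts, HLA-DMB had few reads, and HLA-DMA kept most of its level. Sequences run 5′ to 3′ along the gene, and capitals mark 2 motifs. The first is the core of the Y box, ATTGG, which reads CCAAT where it lies on the other strand. The second is TGATGA, a stretch of the X box.
CD74: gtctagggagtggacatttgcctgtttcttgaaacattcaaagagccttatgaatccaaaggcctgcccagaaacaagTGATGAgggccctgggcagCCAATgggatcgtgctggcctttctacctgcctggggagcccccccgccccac
HLA-DOB: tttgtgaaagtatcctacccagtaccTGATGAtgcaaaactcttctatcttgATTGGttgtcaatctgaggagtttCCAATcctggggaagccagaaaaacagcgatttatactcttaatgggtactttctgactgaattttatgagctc
HLA-DMB: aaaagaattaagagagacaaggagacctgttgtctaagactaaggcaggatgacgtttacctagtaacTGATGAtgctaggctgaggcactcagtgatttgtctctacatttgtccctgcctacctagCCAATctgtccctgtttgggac
HLA-DMA: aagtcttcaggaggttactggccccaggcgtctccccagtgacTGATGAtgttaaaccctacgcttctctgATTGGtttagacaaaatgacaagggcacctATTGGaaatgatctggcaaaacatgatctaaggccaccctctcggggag
In CD74, 13 bases lay between TGATGA and the next Y box core, against 20 in HLA-DOB, 22 in HLA-DMA, 21 in HLA-DRB1 and 54 in HLA-DMB. The Y box core, searched on both strands over every entry of a gene, occurred in 6 of the 8 members (CD74, HLA-DRB1, HLA-DPB1, HLA-DMA, HLA-DMB and RFX5) and in 39.7% of the 27305 genes with an entry. The X box core GCAAC occurred in 4 of 8 members and in 38.4% of genes. TGATGA, a motif picked after the sequences were seen, occurred in 5 of 8 members and in 13.2% of genes; in HLA-DPA1 it lay after the start. In HLA-DRB1, GCAAC runs directly into TGATGA. CD74, HLA-DOB, HLA-DMA, HLA-DMB and HLA-DRB1 thus carry the same pair of motifs at differing spacing, as does HLA-DRB5, a further DR beta chain. A match is a description of letters in this window and does not show that a factor binds there.

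The libraries held 75722114 counts (untreated) and 59902712 counts (refractory). Levels are given as CPM, the count scaled to library size. Differences are on the log2(CPM + 1) scale, refractory minus untreated, so they are too small for low genes, and were called at 2-fold. Intervals are exact 95% intervals that cover counting error only. A gene was described if it reached 1 CPM in at least 1 library, which 14167 genes did. Markers of the line were abundant in both tumours, with KRT8 at 3204 and 1827 CPM, EPCAM at 471 and 785 CPM and ERBB2, the target of the conjugate, at 7267 and 7975 CPM. MUC1, a mucin, was the 1 of 7 such markers past 2-fold (36.0 and 135 CPM).

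CD74 and HLA-DRA, the most abundant class II genes of the untreated tumour, were nearly absent from the refractory one, CIITA and HLA-DOB were several-fold lower, and HLA-DMA, RFX5 and RFXAP stayed within 2-fold. Of the 10 members 6 were described. Among these 3 were lower (CD74, HLA-DRA and CIITA), 0 higher and 3 between, where 11.0% of all described genes were lower and 9.80% higher. These 3 reached 1 CPM in the untreated library only, so they had to be lower to some degree and their number is no support by itself. The median log2 difference of the 6 was -0.95, against 0.03 over all described genes. All 6 lay below 0, as did 48.0% of described genes. CD74, HLA-DRA and CIITA had to lie there, so the median and this count are no support either. With no filter on level the member median was -0.48. Of members with any read, 9 of 9 had the lower CPM in the refractory tumour, against 52.4% of the 20165 genes with a read. HLA-DRB1 had none. HLA-DPA1 and HLA-DPB1 had reads in the untreated library only, so they too had to be lower. Every member had whole counts in both libraries, so no fractional share of a read shows in them.

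**Figure D1:**
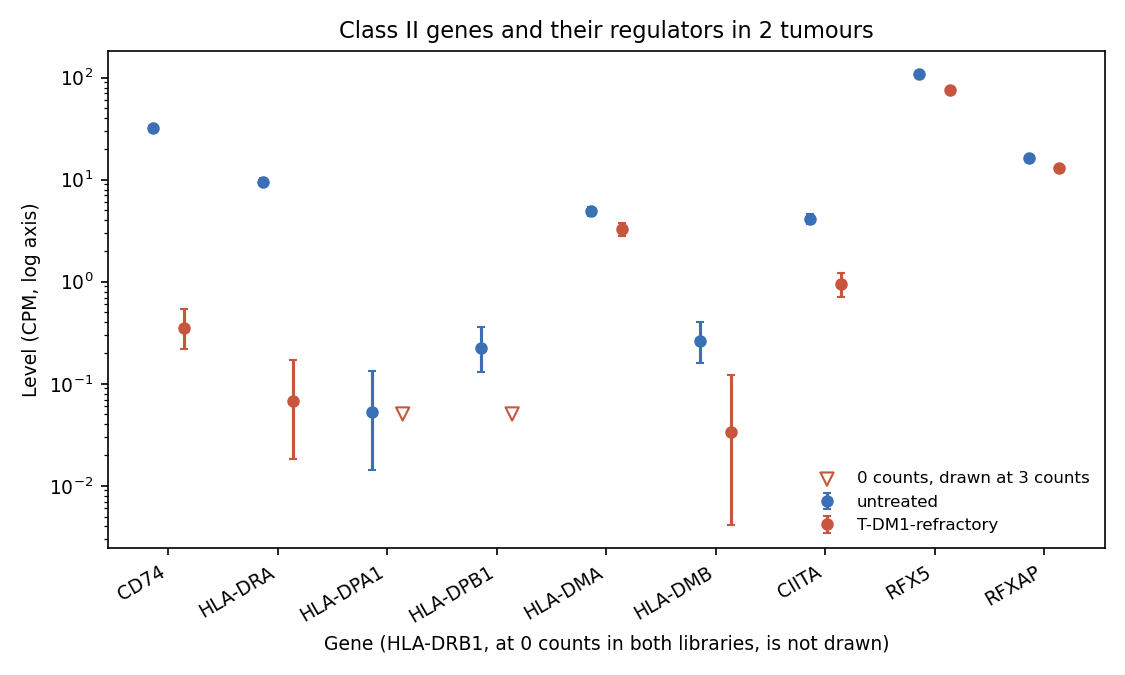
Level of each class II gene and regulator (CPM, log axis) in the untreated and the T-DM1-refractory tumour, 1 library each; bars are exact 95% Poisson intervals, and open triangles mark genes at 0 counts, drawn at 3 counts. CD74 fell from 32.4 to 0.354 CPM and HLA-DRA from 9.57 to 0.0674 CPM, while HLA-DMA, RFX5 and RFXAP stayed close.

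CD74, the invariant chain (chromosome 5, 150401639 to 150412910, GRCh38.p14), had 2476 counts in the untreated and 21 in the refractory library, or 32.4 and 0.354 CPM. It was 91.5-fold lower (95% interval 59.7 to 148), a log2 difference of -4.62. By that difference it ranked 68 among all 14167 described genes, counted from the largest decrease. The described genes nearest to it over the 2 libraries, by the distance of log2(CPM + 1), were TREML2 (34.7 and 0.438 CPM), VWA5A, DUOX2, LIMCH1 and MRAS, at distances of 0.13 to 0.24. With 2 libraries such a likeness says only that 2 levels are near.

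HLA-DRA, the nearly invariant alpha chain of HLA-DR (chromosome 6, 32439887 to 32445046), had 732 counts and 4 counts, or 9.57 and 0.0674 CPM. It was 142-fold lower (95% interval 55.2 to 523), a log2 difference of -3.31 and rank 175. The plain fold of HLA-DRA was larger than that of CD74, but the intervals overlap and 4 reads fix it poorly. The genes nearest to HLA-DRA were HSD3BP4, CCDC22, TDO2, MARC2 and VWDE, at 9.36 to 10.1 CPM in the untreated tumour and 0 to 9 counts in the refractory one. HLA-DRB1, the beta partner of HLA-DRA (chromosome 6, 32578775 to 32589848), had 0 counts in both libraries. The exact 95% interval of 0 counts reaches up to 0.0482 CPM (untreated) and 0.0622 CPM (refractory). HLA-DRB5, a second DR beta gene carried by some haplotypes, was also listed at 0 in both, and HLA-DRB3 and HLA-DRB4 were not analysed here. DR beta genes are highly polymorphic, and the sources used here do not say how alleles unlike the reference were aligned. In the untreated tumour the DR alpha gene thus had reads while HLA-DRB1 and HLA-DRB5 had none.

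The DP chains were near the limit of detection. HLA-DPB1 (chromosome 6, 33075990 to 33089696), the DP beta chain, had 17 counts in the untreated library (0.222 CPM) and 0 in the refractory one, at least 4.40-fold lower at a floor of 3 counts. The exact interval of that ratio reaches down to 3.20-fold. HLA-DPA1 (33064569 to 33080748), its alpha partner, had 4 counts and 0 counts, at least 1.03-fold lower at the floor, and its interval reaches 0.512-fold, so no difference was detectable at this depth. The DP genes overlap on the chromosome, so without strand the reads of the shared stretch cannot be assigned with certainty.

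The alpha and beta chains of the peptide editor HLA-DM went down by different factors. HLA-DMA (chromosome 6, 32948618 to 32953097), the alpha chain, had 376 and 193 counts, or 4.92 and 3.25 CPM. It was 1.51-fold lower (95% interval 1.27 to 1.81), short of the 2-fold call. HLA-DMB (32934636 to 32941028), the beta chain, had 20 and 2 counts, or 0.262 and 0.0337 CPM, 7.76-fold lower (95% interval 1.88 to 68.5). The ranges of the 2 chains barely separate, since the lower end for HLA-DMB (1.88) is close to the upper end for HLA-DMA (1.81). On the deposited FPKM scale, which divides by gene length, HLA-DMA exceeded HLA-DMB 24.9-fold in the untreated tumour, so the alpha chain was in excess already there.

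Of the 9 other class II chains listed, 7 had a row and only HLA-DOB was described. HLA-DOB, the beta chain of HLA-DO, which restrains HLA-DM and is best known from B cells, had 343 and 46 counts (4.49 and 0.775 CPM) and was 5.79-fold lower (95% interval 4.24 to 8.05). With 5 CPM added (-0.72) HLA-DOB fell short of the 2-fold call. Its partner HLA-DOA had 16 and 0 counts, at least 4.14-fold lower at a floor of 3 counts, and the exact interval reaches down to 2.99-fold. HLA-DQA2 had 9 and 0 counts, HLA-DQA1 had 2 and 0, HLA-DQB1 had 1 and 3, and HLA-DQB2 had none. Over the 13 class II chains with a row, 10 had a read, of which 9 had the lower CPM in the refractory tumour and 1 (HLA-DQB1, by 2 reads) the higher. Their summed level fell from 19.9 to 4.18 CPM, and 193 of the 248 counts left were those of HLA-DMA.

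Among the regulators, CIITA differed most. CIITA (chromosome 16, 10866206 to 10943021), the coactivator, had 316 and 56 counts, or 4.13 and 0.944 CPM. It was 4.38-fold lower (95% interval 3.29 to 5.93), a log2 difference of -1.40 and rank 944. With 5 CPM added (-0.62) or on FPKM (-0.70) CIITA fell short of the 2-fold call. CIITA is transcribed from several starts that differ by cell type, which counts per gene do not separate. RFX5 (chromosome 1, 151340640 to 151347252), the DNA-binding subunit of the RFX complex, stood at 107.8 and 75.5 CPM, 1.43-fold lower (95% interval 1.38 to 1.48). RFXAP (chromosome 13, 36819222 to 36829104), its associated protein, stood at 16.1 and 13.0 CPM, 1.25-fold lower (95% interval 1.14 to 1.36). The decrease of CIITA was thus larger than those of both RFX subunits beyond counting error, and smaller than those of CD74 and HLA-DRA.

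**Figure D2:**
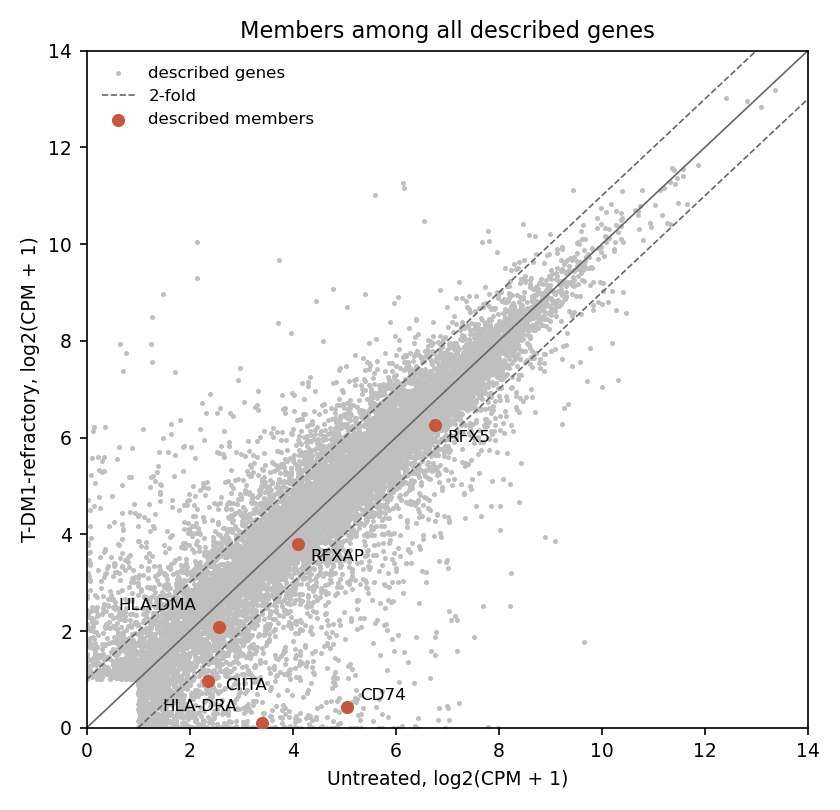
Level in the T-DM1-refractory against the untreated tumour, as log2(CPM + 1), for all 14167 described genes (grey) and the 6 described members (red); dashed lines mark 2-fold. CD74, HLA-DRA and CIITA lie below the lower line, and HLA-DMA, RFX5 and RFXAP inside it.

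The order of levels per length changed between the tumours. By deposited FPKM, the untreated tumour ranked RFX5 (32.7), CD74 (26.9), HLA-DRA (9.67), RFXAP (6.40), HLA-DMA (5.90), CIITA (0.959), HLA-DMB (0.237), HLA-DPB1 (0.124) and HLA-DPA1 (0.0377). Neighbours whose counting intervals overlap were RFXAP with HLA-DMA, HLA-DMB with HLA-DPB1, and HLA-DPB1 with HLA-DPA1. In the refractory tumour RFX5 (22.5) still led, followed by RFXAP (5.06) and HLA-DMA (3.87), and then at a distance CD74 (0.292), CIITA (0.204), HLA-DRA (0.0675) and HLA-DMB (0.0302). Here the intervals of CD74 and CIITA overlapped, as did those of CIITA and HLA-DRA and of HLA-DRA and HLA-DMB. CD74 stood 4.56-fold above HLA-DMA in the untreated tumour, and HLA-DMA stood 13.2-fold above CD74 in the refractory one.

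In the authors' deposited table, 3 members had p under 0.05, CD74 (2.38e-06), HLA-DRA (1.87e-06) and HLA-DPB1 (0.0105), against 7.20% of all its genes. CIITA had 0.0633 there. Those values come from 1 library against 1 with a dispersion that the sources used here do not state, so they compare libraries, not conditions, and rest on the same counts as above.

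The class II genes lie in a stretch of chromosome 6 whose other genes were mostly higher in the refractory tumour. From 0.5 Mb before HLA-DRA to 0.5 Mb after HLA-DPB1 (31939887 to 33589696), 44 genes other than class II chains were described. Of these 17 were higher, 0 lower and 27 between, against 9.80% of all described genes higher. Their median log2 difference was 0.93, and over the 699 described genes of chromosome 6 without class II chains it was 0.38. Besides COL11A2 (-0.87) and AGER (3.35 and 3.34 CPM), all of them had differences above 0. The called genes ranged from RXRB (1.11, a retinoid receptor) and GPSM3 (1.07) to HSD17B8 (1.90, 1.29 and 7.55 CPM), and included CFB, C4A, NELFE, SKIV2L, STK19, RNF5, SLC39A7, VPS52, WDR46, PFDN6, RGL2, TAPBP, KIFC1 and PHF1. Between HLA-DRA and HLA-DPB1 themselves, 7 such genes were described and 7 lay above 0 (median 0.53), among them TAP2 (0.55), PSMB8 (0.62), TAP1 (0.35) and BRD2 (0.96). C4A and C4B are near-identical copies, and PPT2-EGFL8 overlaps PPT2, so their reads can be divided. HLA-DRA (-3.31), HLA-DOB (-1.63) and HLA-DMA (-0.48) therefore went against the direction of their neighbours.

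**Figure D3:**
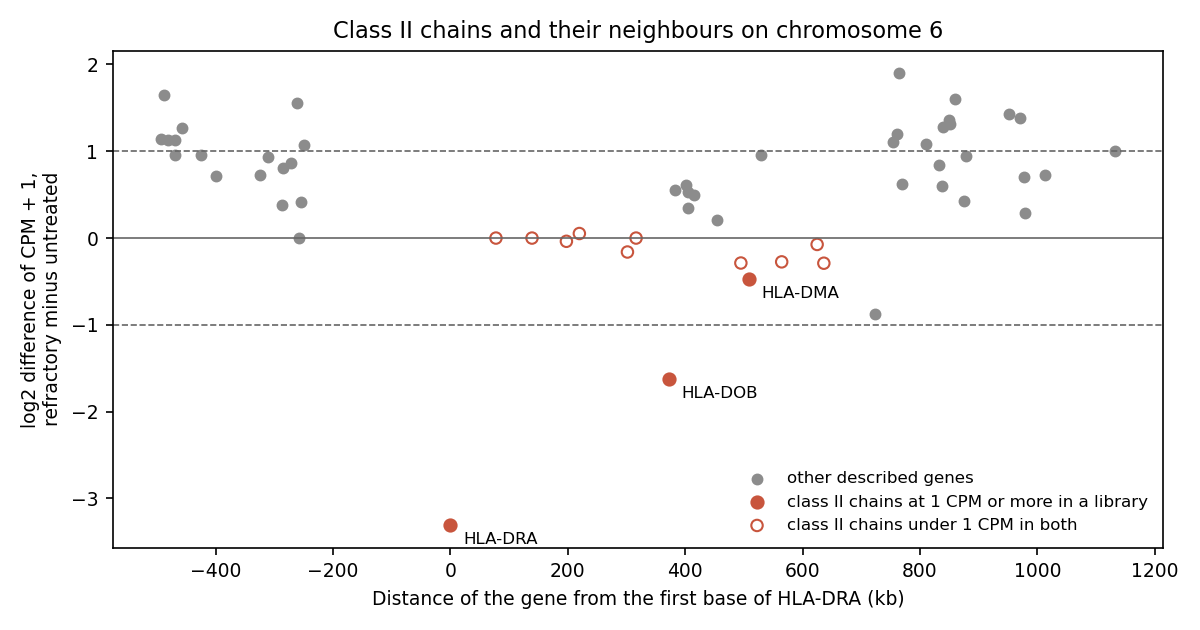
Difference between the tumours (log2 of CPM + 1, refractory minus untreated) along chromosome 6, by distance from the first base of HLA-DRA in kb, for class II chains (red, open where under 1 CPM in both libraries) and the 44 other described genes (grey); dashed lines mark 2-fold. HLA-DRA, HLA-DOB and HLA-DMA lie below 0 while 42 of the 44 neighbours lie above it.

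The partners of CIITA at the promoter differed little. Of 6 factors that sit on the boxes 0 were called (median -0.22): RFXANK, the remaining RFX subunit, stood at 17.4 and 10.5 CPM, NFYB, the one with the highest FPKM, at 66.0 and 59.0 CPM and CREB1 at 126.5 and 97.7 CPM. Of 10 cofactors and repressors 2 were lower and 0 higher (median -0.37). SMARCA4, the ATPase of SWI/SNF chromatin remodelling, stood at 128.6 and 51.6 CPM (2.49-fold lower). PRDM1, a repressor that shuts CIITA off in plasma cells, stood at 24.8 and 3.34 CPM (7.44-fold lower). HDAC1, a histone deacetylase with the highest FPKM of this list, stood at 173 and 283 CPM.

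The interferon gamma pathway, which switches CIITA on in epithelial cells, had 1 gene called higher, the receptor chain IFNGR1, at 99.9 and 255 CPM (2.56-fold higher, 95% interval 2.49 to 2.63). JAK2, a kinase of the receptor (25.6 and 13.6 CPM), and IRF1, which acts on a CIITA start (10.9 and 20.5 CPM), stayed inside 2-fold. SOCS1, the feedback inhibitor, had 10 and 4 counts and was not described.

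Of 11 endosomal proteases and processing factors 3 were higher and 1 lower (median 0.36). The lower one was CTSS, cathepsin S, the main protease that trims the invariant chain in antigen-presenting cells, at 57.2 and 6.51 CPM (8.79-fold lower, 95% interval 7.92 to 9.78). CTSV, which takes this part in thymic epithelium, stood at 9.25 and 29.0 CPM, CTSH at 21.9 and 58.1 CPM, and CTSE, an aspartic protease of gastric epithelium, at 1.78 and 499 CPM. By FPKM, CTSB led the list in the untreated tumour and CTSE in the refractory one. CTSB (654 and 391 CPM), CTSD (266 and 320 CPM), the thiol reductase IFI30 (9.59 and 12.6 CPM), CTSL (25.1 and 30.1 CPM) and SPPL2A, which clears the last CD74 fragment from the membrane (41.6 and 67.9 CPM), were between. Of the 3 turnover genes, CD83, which protects surface class II from ubiquitination, was higher (4.39 and 11.8 CPM), while MARCH1, the ubiquitin ligase it opposes, stood at 15.9 and 9.78 CPM and MARCH8 at 47.5 and 42.8 CPM. Of 5 genes for the role of CD74 as receptor of the cytokine MIF, 3 were described and 0 called, with MIF at 35.6 and 44.3 CPM and the coreceptor CD44 at 198 and 232 CPM.

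Over these lists together, with class I included, 6 of 50 described genes were higher and 5 lower (median 0.19), a share near that of all described genes.

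**Figure D4:**
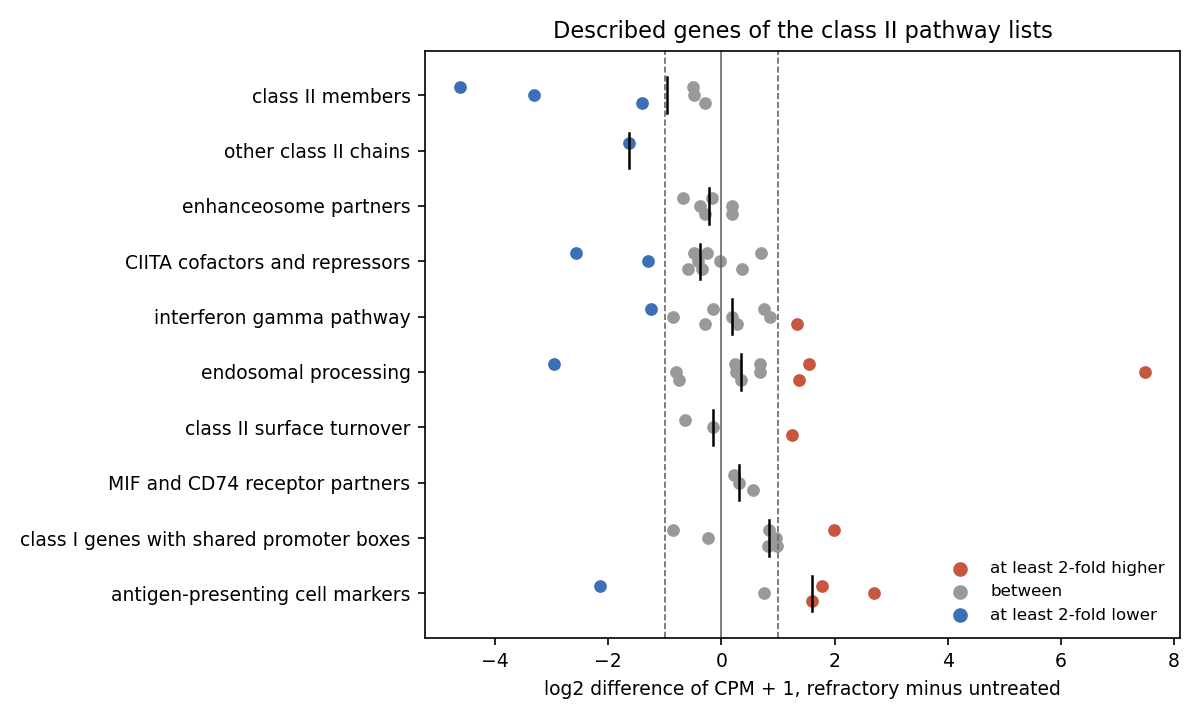
Difference between the tumours (log2 of CPM + 1, refractory minus untreated) for each described gene of the lists, coloured by the 2-fold call; black bars are list medians and dashed lines mark 2-fold. The 3 lower members and HLA-DOB, the single point of the second row, lie to the left of -1, and all 6 promoter partners (enhanceosome) lie between the dashed lines.

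Class I genes use related promoter boxes through NLRC5, the class I counterpart of CIITA. NLRC5 stood at 78.8 and 43.2 CPM, 1.82-fold lower (95% interval 1.74 to 1.91), against 4.38-fold for CIITA. Of the 7 class I genes 1 was called, HLA-C (75.9 and 307 CPM, higher), and B2M, the shared light chain, stood at 3759 and 3184 CPM.

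Markers of professional antigen-presenting cells were mostly absent. Of 18 markers 7 were at 0 in both libraries, including MS4A1, CD1C, CLEC9A and TYROBP, and 5 were described. The list summed to 36.3 CPM without treatment and 131 CPM in the refractory tumour, but most of both sums was LYZ (27.2 and 95.9 CPM). LYZ, CD68 (3.62 and 29.2 CPM) and ITGAM (0.419 and 3.32 CPM) were higher, and CD14 stood at 0.445 and 1.43 CPM. CD79A, a B cell receptor chain, was the 1 marker past 2-fold lower, with 280 and 3 counts (3.66 and 0.0506 CPM), 72.4-fold lower (95% interval 24.5 to 353), while the B cell marker MS4A1 had no read. Below 1 CPM, the myeloid integrin ITGAX had 59 and 25 counts (1.83-fold lower, 95% interval 1.13 to 3.05) and CD163 had 4 and 1. The part of these markers in the class II result was not tested. The table holds human genes, and class II of the mouse host was not analysed here.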

How the data were processed

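Total RNA of untreated and of T-DM1-refractory NCI-N87 tumour was made into 1 TruSeq mRNA library each, per the labels' protocols. The authors deposited 1 table. Per the file headers it gives read counts, FPKM, a log2 fold change and a p-value for each gene. The deposited read counts are of the kind called expected counts, since 92.8% and 93.2% of them were whole within 1e-09 and the rest were not. The deposited FPKM divides by gene length, and was used to set genes side by side. The deposited log2 fold change is refractory over untreated: over the 13007 genes above 50 reads in each library, it lay within 0.00387 of that of TMM-scaled counts. The authors' p-value sets 1 library against 1. The submitters' processing notes name STAR 2.7.0e, RSEM 1.2.28, edgeR 3.26.8, GRCh38 and GRCm38. They are given with no role, and the sources used here name neither the annotation nor a separation of mouse reads.

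Expected counts were rounded, and CPM used TMM factors from edgeR 4.0.16 in R 4.3.3 (1.0097 and 0.9904). Ratios carry exact 95% intervals of 2 Poisson counts given their sum (Clopper-Pearson, scipy 1.17.1), tested on simulated data. They cover counting error only, because 1 library per group gives no measure of variation between tumours. PCR copies were not told apart by molecular identifiers. For a bound, 0 counts were set to 3 counts. Besides the 10 members, 11 lists with 89 genes were used, 2 of them without a row. Members, lists and rules were chosen with earlier results of these data known. The rule names all members, the class II chains, of each list the genes past 2-fold and the most abundant by FPKM, the 5 genes nearest to CD74 and to HLA-DRA, called neighbours on chromosome 6, and ERBB2. Other genes were named after their values were seen, and some list genes are not reported here. Positions are RefSeq gene spans on GRCh38.p14, matched by symbol for 25120 of 29972 genes. Other scalings, pseudocounts, filters, thresholds, unrounded counts and FPKM were tried.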

Additional observations from a re-analysis of the deposited data

How the results depend on the processing

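No paired analysis was possible because each group holds 1 library, and for the same reason no library could be left out. Total count, median of ratios, total count without the 50 most abundant genes and unrounded counts moved no count by over 1.5 times, and no called difference reversed under any setting tried. Over all settings the log2 difference of CD74 ranged from -6.16 to -2.80, of HLA-DRA from -5.85 to -1.52, of CIITA from -2.02 to -0.62 and of HLA-DMA from -0.58 to -0.27. CIITA was not called with 5 CPM added (-0.62), on FPKM (-0.70) or at 4-fold, and HLA-DOB not with 5 CPM added (-0.72) or at 4-fold; both lie below the filter of 10 CPM. Of members, 1 was lower among genes of at least 10 CPM. The member median was -1.30 with 0.1 CPM added, -0.55 with 5 CPM added, -0.61 on FPKM, -0.48 with no filter and -0.51 at 10 CPM. Of all described genes, 821 were higher and 840 lower with 5 CPM added, 2755 and 2677 at 1.5-fold, 360 and 504 at 4-fold, and 921 lower at 10 CPM. Of the chromosome 6 neighbours, 11 were higher with 5 CPM added, 33 at 1.5-fold, 0 at 4-fold and 61 within 2 Mb. There, 1 was lower with 0.1 CPM added, 1 at 1.5-fold and 4 within 2 Mb. Their median was 1.05 with 0.1 CPM added, 0.65 with 5 CPM added, 0.83 on FPKM and 1.06 within 2 Mb. Pathway genes were higher in 15 and lower in 12 cases at 1.5-fold, 1 and 2 at 4-fold, with a median of -0.037 with no filter. The longer Y box GATTGG was in 5 members. Depth limits HLA-DPA1, HLA-DPB1, HLA-DMB and the refractory levels of CD74 and HLA-DRA, each with under 25 counts.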

Other observations

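The receptors that read class II on lymphocytes had some reads in these tumours of a carcinoma line. CD4, the class II coreceptor of helper T cells, had 209 and 20 counts (2.73 and 0.337 CPM) and was 8.11-fold lower in the refractory tumour (95% interval 5.12 to 13.6). LAG3, an inhibitory receptor for class II, had 80 and 28 counts and was 2.22-fold lower (95% interval 1.43 to 3.54), short of the call on the log2 scale (-0.48). CD3E, which T cells need for their receptor, had 0 counts in both libraries, and PTPRC, a marker of all nucleated blood cells, had 5 and 17. CXCR4, a partner of CD74 in MIF signalling, had 56 and 7 counts and was 6.21-fold lower (95% interval 2.82 to 16.1), at under 1 CPM in both.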
